A study of Saccharomyces cerevisiae with 2 samples.

Results

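Autophagy encloses cytoplasm or organelles in a double membrane, the autophagosome, and delivers them to the vacuole for breakdown. In budding yeast most of the dedicated proteins carry ATG names. A core machinery builds the membrane: the Atg1 kinase complex starts it, vesicles carrying Atg9 and a lipid transfer protein supply it, a phosphatidylinositol 3-kinase complex marks it, and a pair of ubiquitin-like systems attaches Atg8 to it. Selective autophagy adds receptors that hold particular cargo, such as mitochondria, peroxisomes or the nuclear envelope, and bind Atg8 and the scaffold Atg11. The vacuole also receives hydrolases through the related cytoplasm-to-vacuole targeting (Cvt) pathway.

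The ATG genes were taken as every row of the deposited expression table whose name is ATG followed by a number, which gave 34 genes of 6142 named genes. All 34 reached the minimum used throughout, a mean of at least 50 normalized reads over both libraries, and so did 5973 genes in all. The naming rule itself uses no measured value.

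The samples were 2 cultures of BY4741, a haploid laboratory strain of Saccharomyces cerevisiae of mating type a, sampled in mid-log phase in the glucose-based rich medium YPD. The untreated culture received no agent and the paraquat culture was held in 2.5 mM paraquat for 8 h. The herbicide paraquat cycles between an oxidized and a reduced state in cells and so generates superoxide from oxygen. The question addressed is how the treated transcriptome differed. Each group is 1 library, so none of the differences below has a replicate check and none was tested. How long the control was cultured is not labelled, so culture time and paraquat cannot be told apart. In bulk RNA, a change in how many cells carry a transcript and a change in the amount per cell cannot be told apart either. STE2, the pheromone receptor of a cells, had 105963 normalized reads untreated and 84794 after paraquat, and STE3, the receptor of alpha cells, had 719 and 1175. All 6 a-cell markers listed lay below 0 after paraquat, or 5 when scaled to total gene reads. All 3 alpha-cell markers that reached the minimum lay above 0, where 49.7% of all genes did, or 78.6% when scaled to total gene reads. The remaining alpha-cell marker, MF(ALPHA)1, missed the minimum and went from 54.8 to 42.0 normalized reads. Against the median of genes of like mean expression, 5 of the 6 a-cell markers lay below and these 3 alpha-cell markers above. The part of this in the results below was not tested.

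Depth on named genes was 164909400 reads untreated and 165264107 after paraquat. ATG genes took 0.114% of the untreated and 0.146% of the paraquat reads. Without ATG41 and ATG39 these shares were 0.107% and 0.121%. The smallest ATG count was 693 reads, for ATG10 in the untreated library. Values below are normalized reads, which are reads divided by 1 size factor per library. Folds carry a 95% exact binomial interval of the read split between both libraries, which covers counting error only. If libraries are instead scaled to total gene reads, each log2 change moves up by 0.26, so directions near 0 depend on the scaling.

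After paraquat, 2 ATG genes were higher by 2-fold or more, ATG41 and ATG39, and 0 were lower by as much. Over all genes compared, 3.08% passed 2-fold upward and 1.52% downward. Under the deposited scaling the same 2 genes were the ones at least 1.5-fold higher, where 7.75% of all genes were. Scaled to total gene reads, which raises every gene, ATG32 (1.61-fold) and ATG34 (1.51-fold) joined them. The share of all genes past 1.5-fold under that scaling was not counted. Apart from ATG41 and ATG39, the other 32 ATG genes stayed within 2-fold. The median log2 change of the 34 was -0.04, beside -0.003 for all genes compared, and scaling to total gene reads made these 0.22 and 0.26. Of the 34, 16 lay above 0 under the deposited scaling, where 49.7% of all genes did, and 27 when scaled to total gene reads, where 78.6% did. Transcripts of low abundance tended upward in this comparison, so each gene was also set against the median of its class among 10 classes of mean expression, and 15 of the 34 lay above it, where 49.9% of all genes did.

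**Figure D1:**
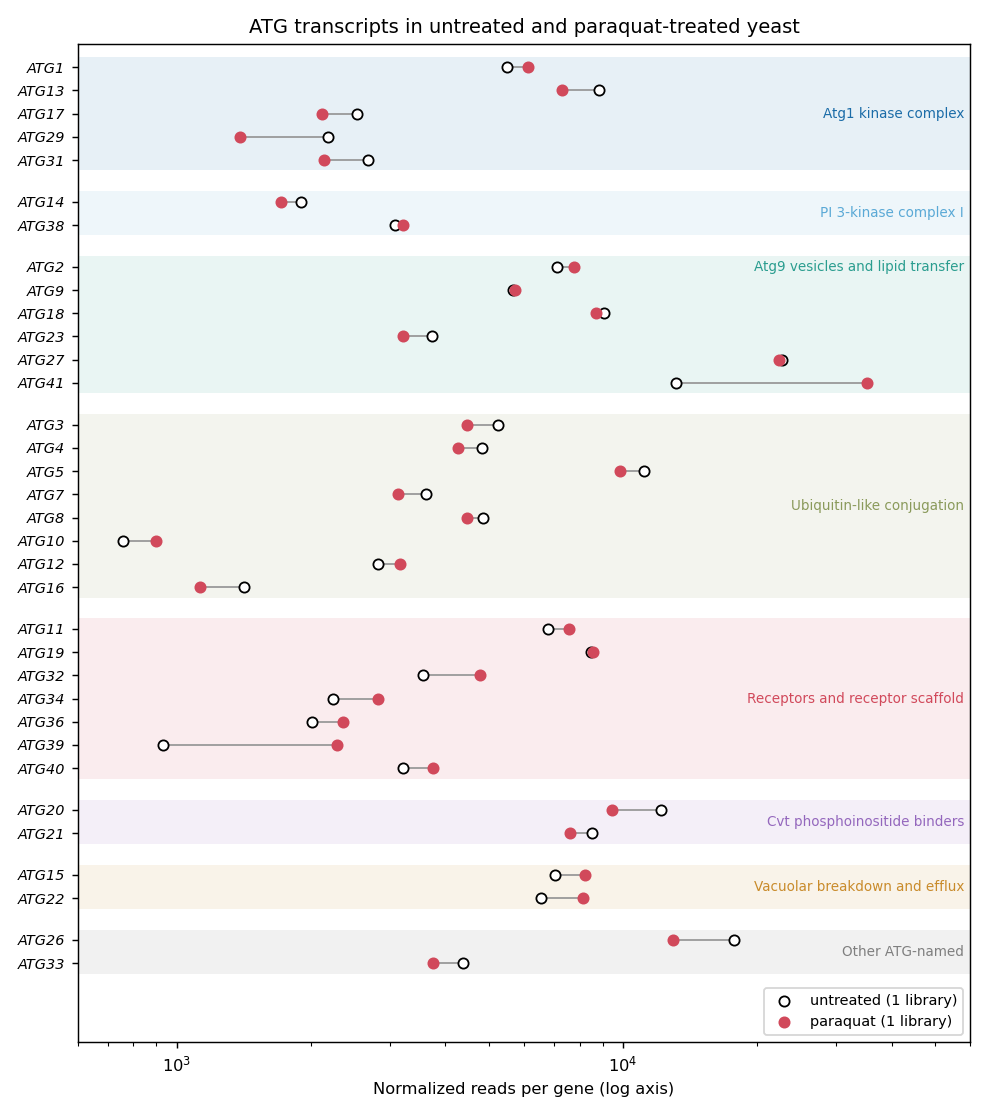
Normalized reads of each of the 34 ATG genes (log axis), grouped by role, in the untreated library (open circles) and the paraquat library (filled circles). ATG41 and ATG39 are the only genes whose circles lie more than 2-fold apart, and all 7 genes of the receptor band have the paraquat circle on the right under the deposited scaling.

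ATG41 encodes a protein that binds Atg9 and sets how fast autophagosomes form. It had 13111 normalized reads untreated and 35121 after paraquat. That is a 2.68-fold difference (2.62 to 2.73), rank 79 from the highest among the 5973 genes compared. Its class of mean expression had a median log2 change of -0.05, and 2.35% of those genes were at least 2-fold higher. Per kb of coding length ATG41 was also the most abundant of the 34 transcripts in both libraries, with 31901 normalized reads per kb untreated and 85451 after paraquat. Of its annotated neighbours, the ferredoxin gene YAH1 was 1.21-fold lower, and the ribosomal protein gene RPL36B, whose reads may be split with its paralog RPL36A, was 1.23-fold lower.

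ATG39 encodes a receptor in the outer nuclear membrane that directs parts of the nucleus and of the perinuclear endoplasmic reticulum into autophagosomes. It had 934 normalized reads untreated and 2284 after paraquat. That is a 2.44-fold difference (2.26 to 2.65), rank 104 from the highest. In its class of mean expression the median log2 change was 0.13 and 5.19% were at least 2-fold higher. Per kb it was the lowest of the 34 in the untreated library, at 780 normalized reads per kb, and 29th of 34 after paraquat, at 1908. Its annotated neighbours were the Ras exchange factor gene CDC25, 1.04-fold higher, and the mitochondrial ribosomal protein gene MRPL15, 1.20-fold lower. In the authors' deposited table the unadjusted p was 0.0320 for ATG41 and 0.0531 for ATG39, and both adjusted p-values were 0.999. ATG41 was the 1 ATG gene of 34 under an unadjusted 0.05, where 2.12% of all named genes were. That test compared 1 library with 1.

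The promoter windows of both genes are printed because these are the ATG transcripts that differed most, and the window of ATG8 because it held the most matches to the motifs searched. Each window runs from 250 bases before the start codon to 50 bases from its first base, 5′ to 3′ on the coding strand, from the RefSeq R64 genome. All 3 genes lie on its reverse strand. Capitals mark the start codon and the motif matches.
ATG41: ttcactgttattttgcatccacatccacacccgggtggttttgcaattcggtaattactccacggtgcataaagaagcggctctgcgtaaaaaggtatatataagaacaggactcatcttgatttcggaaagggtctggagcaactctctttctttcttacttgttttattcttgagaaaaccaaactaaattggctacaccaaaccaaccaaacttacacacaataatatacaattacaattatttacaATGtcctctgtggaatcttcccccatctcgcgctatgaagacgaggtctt
ATG39: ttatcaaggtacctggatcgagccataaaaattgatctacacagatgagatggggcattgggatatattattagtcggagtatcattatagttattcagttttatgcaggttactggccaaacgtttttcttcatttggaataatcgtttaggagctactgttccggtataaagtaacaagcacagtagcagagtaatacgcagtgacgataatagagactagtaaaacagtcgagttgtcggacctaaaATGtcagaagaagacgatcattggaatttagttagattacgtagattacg
ATG8: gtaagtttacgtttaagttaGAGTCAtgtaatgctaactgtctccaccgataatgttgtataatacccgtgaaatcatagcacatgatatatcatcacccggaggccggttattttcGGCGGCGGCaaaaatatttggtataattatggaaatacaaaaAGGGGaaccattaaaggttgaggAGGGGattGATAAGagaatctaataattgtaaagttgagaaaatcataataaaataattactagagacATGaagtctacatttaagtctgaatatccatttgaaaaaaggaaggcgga

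The 6 motifs were searched on both strands as exact letters. They were GGCGGC (the core bound by the repressor Ume6), TGACTC (Gcn4), GATAAG (the GATA factors Gln3 and Gat1), CCCCT (Msn2, Msn4 and Rph1), TTACTAA (Yap1) and TGCACCC (Aft1). The windows of ATG41 and ATG39 held no match to any of them. The ATG8 window held 6 matches, namely 2 overlapping copies of GGCGGC, 1 TGACTC read on the other strand, 1 GATAAG and 2 CCCCT read on the other strand. Among the 34 ATG windows, 10 held GATAAG (29.4%, beside 14.7% of 6001 windows of protein-coding genes) and 6 held TGACTC (17.6% beside 7.98%). GGCGGC was in 2 (5.88% beside 5.13%), CCCCT in 7 (20.6% beside 21.6%), TTACTAA in 1 (2.94% beside 7.45%) and TGCACCC in 0 (beside 1.30%). The receptor gene ATG32 had 3 GATAAG matches, more than any other ATG window. These are letter matches in 1 window per gene, with no measure of binding, and the shares were not tested.

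The 6 receptor genes had a higher median change than the 17 core genes, with overlapping ranges and no test. The core was taken as the Atg1 complex, the ubiquitin-like systems, ATG2, ATG9, ATG14 and ATG18, so ATG41 was not in it. All 6 receptor genes were above 0 under the deposited scaling, when scaled to total gene reads and relative to genes of like expression. Of all genes compared, 49.7%, 78.6% and 49.9% were, in that order. Beside ATG39, the mitophagy receptor gene ATG32 went from 3557 to 4773 normalized reads, 1.34-fold higher (1.28 to 1.40). ATG34, a receptor that carries alpha-mannosidase to the vacuole in starved cells, went from 2243 to 2827, 1.26-fold higher (1.19 to 1.33). These were the second and the third of the receptors by fold, and each lay above all 17 core genes, as ATG39 did.

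The remaining receptors differed less. ATG36, the receptor for peroxisomes, went from 2008 to 2363 normalized reads, 1.18-fold higher (1.11 to 1.25), and ATG40, a receptor for the endoplasmic reticulum of the cell periphery, from 3206 to 3742, 1.17-fold higher (1.11 to 1.22). Each lay above 16 of the 17 core genes. ATG19, the receptor of the Cvt pathway for aminopeptidase I and alpha-mannosidase, had 8456 and 8565 normalized reads, a ratio of 1.01 whose counting interval (0.983 to 1.04) includes 1. ATG19 and ATG34 are adjacent genes on the same strand, and the ATG34 level per kb was 26.7% of that of ATG19 untreated and 33.2% after paraquat. ATG11, the scaffold that links receptors to the machinery, went from 6779 to 7571 normalized reads, 1.12-fold higher (1.08 to 1.15).

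Side by side, the 6 receptors had a median log2 change of 0.28 (range 0.02 to 1.29) and the 17 core genes one of -0.17 (range -0.65 to 0.24), which turned to 0.09 when scaled to total gene reads. The difference between these medians was 0.46 and does not depend on the scaling. Without ATG39 it was 0.41, with ATG11 counted as a receptor 0.41, and relative to genes of the same expression class 0.37. In that last comparison the median was 0.15 for receptors and -0.22 for core genes. The ranges overlapped, since 5 core genes lay above ATG19. Summed per kb, receptor transcripts stood at 0.244 of core transcripts untreated and 0.322 after paraquat, a 1.32-fold difference, or 1.26-fold without ATG39. The core sum was 73991 normalized reads per kb untreated and 66990 after paraquat, without ATG41. ATG41 alone had 31901 and 85451, so counting it as core would turn the rise of this ratio into a fall. Receptors were of lower expression than most genes compared: 4 of the 6 were in the second class from the bottom, where the median log2 change was 0.13. With 1 library per group, how much this ratio varies between cultures was not measured.

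**Figure D2:**
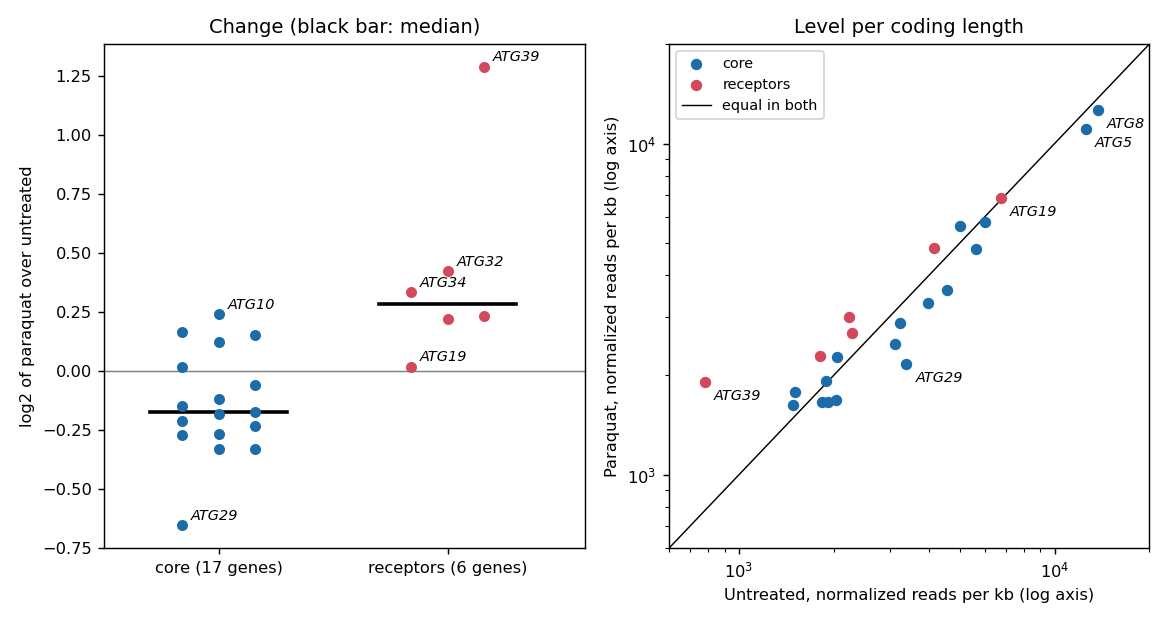
Left, log2 change of each of the 17 core genes and 6 receptor genes (points) with the median of each set (black bars, -0.17 and 0.28). Right, the level of the same genes in normalized reads per kb of coding length in the untreated (x) and paraquat (y) library on log axes, with the line of equal values. Receptors lie on or above that line. Under the deposited scaling 12 of 17 core genes lie below it, against 5 of 17 when scaled to total gene reads. Of all 5973 genes compared, 3006 and 1280 were lower after paraquat, in that order.

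In the Atg1 kinase complex, which receives nutrient signals and starts autophagosome formation, ATG1 and the other 4 genes differed in direction, untested. ATG1, the kinase, went from 5494 to 6114 normalized reads, 1.11-fold higher (1.07 to 1.15). ATG13, its regulatory subunit, went from 8817 to 7316, 1.21-fold lower (1.17 to 1.24). Of the 5 genes of the complex, ATG1 alone lay above 0, both under the deposited scaling and when scaled to total gene reads. Of all genes compared, 49.7% and 78.6% did, in that order. When scaled to total gene reads, ATG13 and ATG17 lay at about 0, with log2 changes of -0.01 and -0.007. Relative to the median of its expression class, 1 of the 5 genes lay above and 4 below, with a median of -0.40. Of all genes compared, 49.9% lay above. TOS3, the neighbour of ATG1 on the opposite strand, was 2.24-fold higher, and whether its reads reach ATG1 was not tested. Per kb, ATG1 stood at 51.3% of ATG13 untreated and 68.8% after paraquat.

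ATG17, ATG29 and ATG31 encode the scaffold on which the other Atg proteins gather when cells starve. ATG29 had the lowest log2 change of the 34, with 2178 normalized reads untreated and 1385 after paraquat, 1.57-fold lower (1.47 to 1.68). It was the 1 ATG gene at least 1.5-fold lower, where 5.88% of all genes compared were, a call that is lost when scaled to total gene reads (log2 change -0.39). ATG29 overlaps the neighbouring gene SET6, on the opposite strand, by 24 bases, and SET6 had a log2 change of -0.27. ATG31 was 1.26-fold lower (1.19 to 1.33) and ATG17 1.20-fold lower (1.13 to 1.27). The ATG29 level per kb was 1.67 times that of ATG17 untreated and 1.28 times after paraquat, while ATG31 stood at 2.25 and 2.15 times ATG17.

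The 8 genes of the ubiquitin-like systems stayed within 2-fold, as 5698 of the 5973 genes compared did. The median log2 change of the 8 was -0.18, or 0.08 when scaled to total gene reads. ATG8, the protein that is attached to the membrane and that receptors bind, had 4859 and 4479 normalized reads, 1.08-fold lower (1.04 to 1.13), a direction that flips when scaled to total gene reads (log2 change 0.14). ATG8 is known to be induced by starvation. Per kb it was the third most abundant ATG transcript in both libraries, with 13726 normalized reads per kb untreated and 12653 after paraquat. Of the 8 genes, 2 lay above 0 under the deposited scaling and 7 when scaled to total gene reads, where 49.7% and 78.6% of all genes did. Relative to the median of their expression class 1 lay above and 7 below, with a median of -0.20, where 49.9% of all genes lay above.

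Within these systems ATG10 and ATG12 lay above the rest. ATG12, the second ubiquitin-like protein, was 1.12-fold higher (1.07 to 1.18), and ATG10, the enzyme that joins it to Atg5, was 1.18-fold higher (1.07 to 1.31) on the smallest counts of the set. Relative to genes of the same expression class, the log2 changes of ATG12 and ATG10 were 0.03 and -0.02. ATG5, its target, was 1.13-fold lower (1.10 to 1.16), and ATG16, which binds the joined pair, was 1.26-fold lower (1.16 to 1.36). Per kb, ATG12 stood at 40.0% of ATG5 untreated and 50.8% after paraquat, and ATG16 at 24.9% and 22.4%. ATG7, the activating enzyme of both systems, was 1.16-fold lower. ATG3, the conjugating enzyme for Atg8, was 1.18-fold lower, and ATG4, the protease that trims and releases Atg8, 1.13-fold lower. The log2 changes of ATG3, ATG4, ATG5 and ATG7 turn to between 0.02 and 0.08 when scaled to total gene reads.

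**Figure D3:**
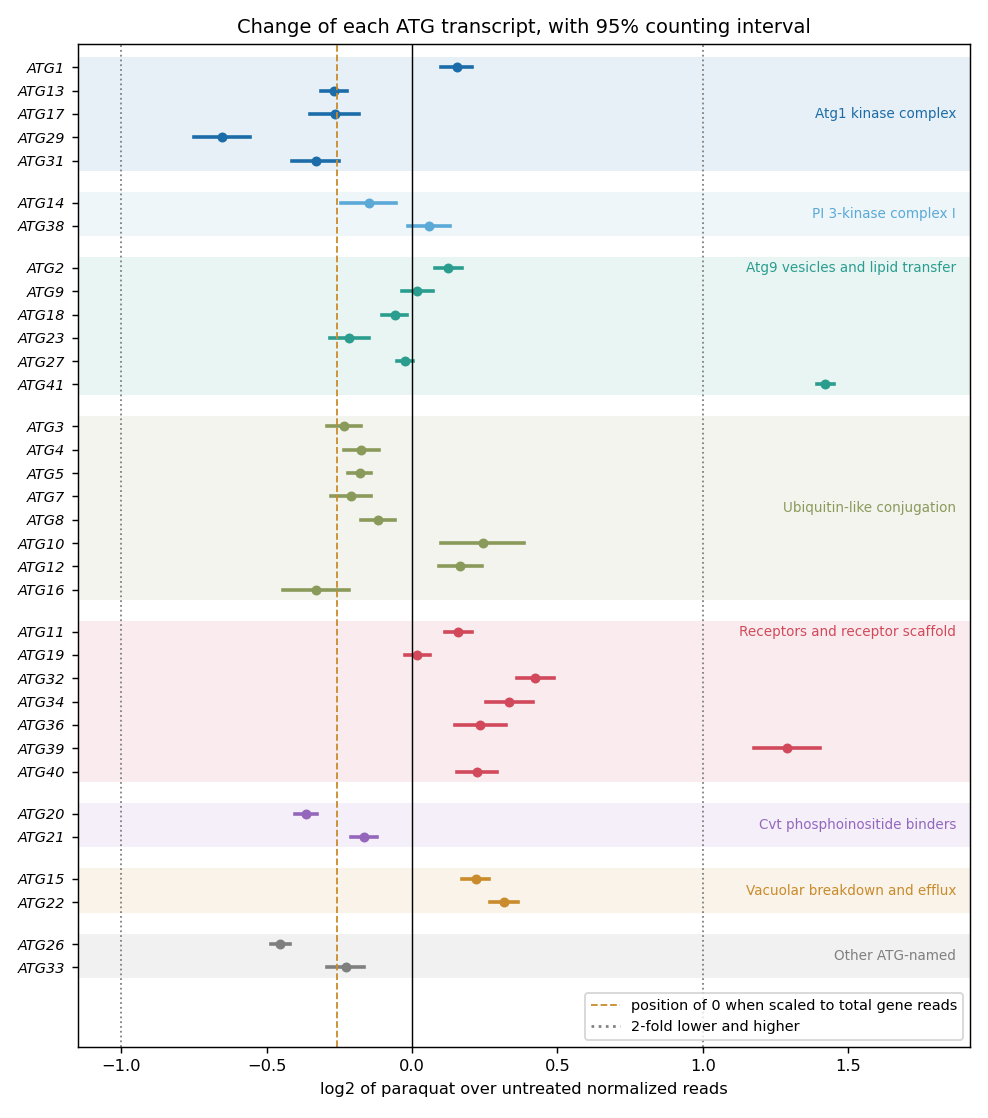
log2 of paraquat over untreated normalized reads for each of the 34 ATG genes, grouped by role. Points are the values, bars the 95% counting intervals, dotted lines 2-fold, and the dashed line marks where 0 lies when scaled to total gene reads. All receptors lie at or right of the solid line, and 4 of 5 genes of the Atg1 complex lie left of both the solid and the dashed line. Of all genes compared, 49.7% lie right of the solid line and 78.6% right of the dashed line. ATG13 and ATG17 are only just past the dashed line.

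Apart from ATG41, genes that deliver membrane differed by at most 1.16-fold under the deposited scaling. ATG9, the membrane protein and lipid scramblase of the seed vesicles, had 5658 and 5731 normalized reads, a ratio of 1.01 (0.976 to 1.05). ATG2, the lipid transfer protein, was 1.09-fold higher (1.06 to 1.13), and ATG18, its partner that binds phosphoinositides, 1.04-fold lower (1.01 to 1.07). ATG41 per kb stood at 16.9 times ATG9 untreated and 44.6 times after paraquat. ATG27, a membrane protein that travels with Atg9, was the second most abundant ATG transcript per kb in both libraries and was 1.02-fold lower (0.998 to 1.04). ATG23, which also moves Atg9, was 1.16-fold lower (1.11 to 1.22), and the sign of ATG18, ATG23 and ATG27 flips when scaled to total gene reads.

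The subunits that belong to the autophagy form of the phosphatidylinositol 3-kinase differed by at most 1.11-fold under the deposited scaling. ATG14 was 1.11-fold lower (1.04 to 1.18), turning to a log2 change of 0.11 when scaled to total gene reads, and ATG38 1.04-fold higher (0.991 to 1.10). The phosphoinositide-binding proteins best known from the Cvt pathway were lower under the deposited scaling. ATG20, a sorting nexin, went from 12143 to 9431 normalized reads, 1.29-fold lower (1.25 to 1.32), and ATG21 was 1.12-fold lower (1.09 to 1.16), with a log2 change of 0.09 when scaled to total gene reads. ATG26, a sterol glucosyltransferase needed for peroxisome breakdown in the yeast Komagataella but not for autophagy in budding yeast, was 1.37-fold lower (1.34 to 1.40). ATG33, a mitochondrial outer membrane protein that aids mitophagy, was 1.17-fold lower (1.12 to 1.22), turning to a log2 change of 0.03.

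Of the 34, ATG22 and ATG15 act in the vacuole itself. ATG22, which exports amino acids released by breakdown, went from 6542 to 8146 normalized reads, 1.25-fold higher (1.20 to 1.29). ATG15, the lipase that opens autophagic bodies, went from 7048 to 8207, 1.16-fold higher (1.13 to 1.20). Both lay above 0 under the deposited scaling and when scaled to total gene reads, where 49.7% and 78.6% of all genes did. Both were in an expression class whose median log2 change was at most 0.01.

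**Figure D4:**
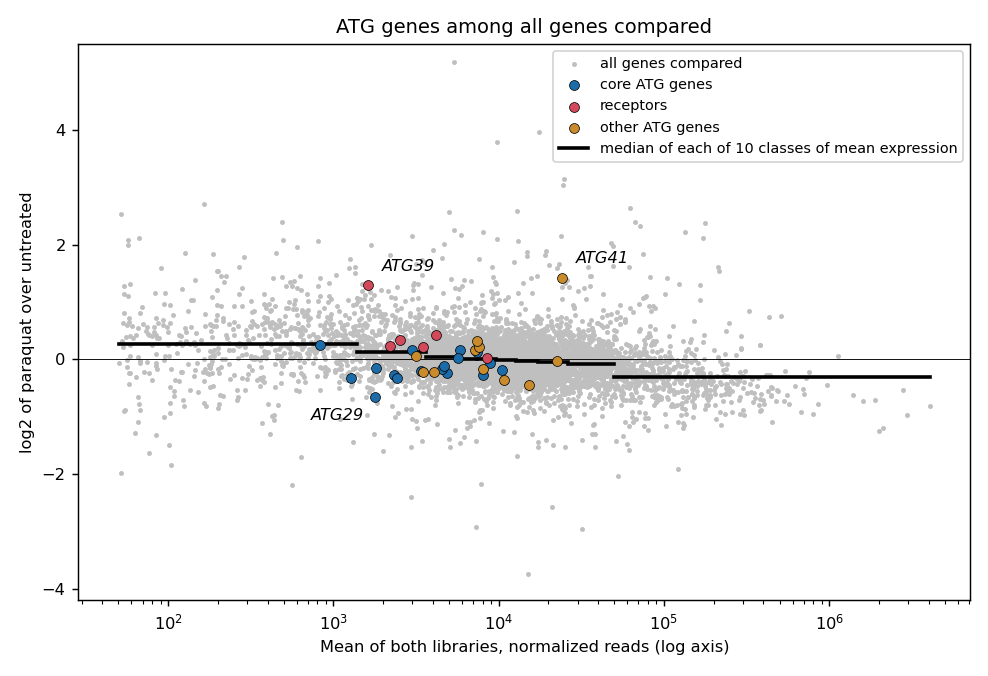
Mean of both libraries in normalized reads (log axis) against log2 of paraquat over untreated for 5973 genes (grey) and the 34 ATG genes (core, receptors and others in colour). Black bars are medians of each of 10 classes of mean expression, which run from 0.27 in the lowest to -0.31 in the highest. ATG41 and ATG39 stand above the band of genes of like expression, and ATG29 at its lower side.

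Other genes of the pathway, in lists drawn up by role, held 0 genes past 2-fold in either direction. Over all genes compared, 3.08% passed 2-fold upward and 1.52% downward. Counts above 0 in these lists are to be read against 49.7% of all genes, or 78.6% when scaled to total gene reads. Counts above the median of the expression class are to be read against 49.9%. Of 20 autophagy partners without an ATG name in the table, which include kinases, tethers and SNAREs, 5 lay above 0, or 16 when scaled to total gene reads, with a median log2 change of -0.07, and 6 lay above the median of their class. The largest differences there were VAM3, the vacuolar SNARE, 1.55-fold lower (1.49 to 1.61), and the dynamin-like gene VPS1, 1.51-fold lower (1.49 to 1.53). Of 8 Cvt cargoes and vacuolar hydrolases 3 lay above 0, or 7 when scaled to total gene reads, with a median of -0.08. Relative to genes of the same class the direction turned, with 5 above and a median of 0.21. PEP4, the proteinase that activates other vacuolar hydrolases, went from 91198 to 136314 normalized reads, 1.49-fold higher (1.48 to 1.51), and the aminopeptidase gene APE4 was 1.36-fold lower (1.33 to 1.39).

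Genes of nutrient signalling and ATG transcription also stayed within 2-fold, as 5698 of the 5973 genes compared did. Of 23 genes of TORC1, its regulators and other kinases upstream of autophagy, 9 lay above 0, or 18 when scaled to total gene reads, with a median log2 change of -0.05, and 9 lay above the median of their class. TPK2, a catalytic subunit of protein kinase A, was 1.71-fold lower (1.66 to 1.75). Of 14 transcription regulators of ATG genes, 6 lay above 0, or 14 when scaled to total gene reads, with a median of -0.01, and 7 lay above the median of their class. The stress factor gene MSN4 was 1.74-fold higher (1.69 to 1.79) and its paralog MSN2 1.19-fold higher (1.16 to 1.22). UME6, a repressor of ATG8, was 1.06-fold lower, and GCN4, the activator of amino acid synthesis genes, 1.06-fold higher. Of 12 genes that nitrogen starvation switches on or that handle nitrogen, 10 lay above 0, or 11 when scaled to total gene reads, with a median of 0.15. Relative to genes of the same class 6 lay above and 6 below, with a median of -0.02. The largest differences were the glutamine synthetase gene GLN1, 1.97-fold lower (1.95 to 1.99), and the arginine permease gene CAN1, 1.46-fold higher (1.43 to 1.49).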

How the data were processed

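RNA of 1 untreated and 1 paraquat-treated culture was sequenced, and groups were taken from the treatment in the labels. The authors' single deposited table gives each gene 1 normalized signal per library. Every value is a whole multiple, within 0.001 read, of 1 step per column (1.10 untreated, 0.913 paraquat), so reads were recovered by division. The log2 column, per the file headers the authors' fold change, matched the log2 ratio of both signals within 8.38e-05. The deposited p-value columns were used as given. Tools listed by the submitters' processing notes, with no roles, are STAR 2.5.2b, Trimmomatic 0.36, DESeq2, featureCounts and Subread 1.5.2. The sources used here do not give the genome build, annotation or strandedness, so no coordinates are printed.

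The 1 unnamed row (0.00449% of untreated and 0.00675% of paraquat reads) was left out. A gene was called at 2-fold or more where its mean reached 50 normalized reads, with no test, since 1 library per group leaves no spread to estimate. For the same reason no count model was fitted. Intervals are Clopper-Pearson and take reads as independent, which PCR copies are not. All 34 names matched the RefSeq R64 annotation, which gave coding lengths, neighbours and promoter windows. BLAST+ 2.17.0 found 0 ATG genes with a copy of at least 95% identity over at least 80% of the coding length. Protein sequences were not used here, so a planned search for Atg8-binding motifs was not made. Full values are given for receptors, ATG11, ATG1, ATG8, ATG9 and genes at least 1.5-fold apart, and other ATG genes by role. Of each pathway list the 2 largest changes are named, except 1 that is not reported here; UME6 and GCN4 were added after seeing values. Members and lists were chosen with earlier results of these data known. Alternatives were the scaling, centring, pseudocounts of 1 and 10, no minimum mean, 1.5-fold, means and the make-up of the sets. The comparison within 10 classes of expression was added after seeing the data. Software was matplotlib 3.10.9, scipy 1.17.1, pandas 2.3.3 and numpy 2.4.6 under Python 3.11.15.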

Additional observations from a re-analysis of the deposited data

How the results depend on the processing

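The 2 ATG genes at least 2-fold higher, ATG41 and ATG39, were past 2-fold under all scalings, centrings and pseudocounts tried, without a minimum mean and relative to genes of like expression. The count at least 2-fold lower was 0 in each of these and 1, ATG29, at 1.5-fold. The median log2 change of the 34 genes, -0.04, turned to 0.22 when scaled to total gene reads, which adds a constant to every gene, and to 0.029 as a mean. Scaled to total gene reads, 11 of the 34 genes changed sign, while among all 5973 genes compared the number above 0 went from 2966 to 4693. Relative to genes of like expression 3 of the 34 changed sign, and the number over all genes was not counted. The difference between receptors and core ranged from 0.37 to 0.55. No paired analysis was possible because each group has 1 library, and no replicate could be left out. Counting error is small at this depth if reads are independent, and the spread between cultures is unknown.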

Other observations

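Some genes of autophagy carry another name in the deposited table and so were not among the 34. YIL024C, which RefSeq names ATG45 and which is known as a receptor for glycogen, went from 1198 to 2164 normalized reads, 1.81-fold higher (1.68 to 1.94). YIL156W-B, named ATG44 there, a mitochondrial protein that divides mitochondria during mitophagy, was 1.26-fold higher (1.22 to 1.30). YBR139W, named ATG42, a vacuolar carboxypeptidase, was 1.34-fold lower (1.32 to 1.37). VPS30, also known as ATG6, and SNX4, also known as ATG24, were 1.05-fold higher and 1.07-fold lower. The receptor gene of this group, YIL024C, lay above 0 as the 6 receptors did, in an expression class where 67.7% of all genes did. ICY1, the paralog of ATG41 from the whole genome duplication, went from 6364 to 12478 normalized reads, 1.96-fold higher (1.902 to 2.02), just short of 2-fold. YIL024C and ICY1 were singled out after their values were seen.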
